A study of Mus musculus with 54 samples.

Results

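The genes described here were Pparg, which encodes the lipid-sensing nuclear receptor PPARγ, the related receptor gene Ppard, the partner receptor gene Rxra, and 7 genes of lipid handling that are widely used as PPAR targets, Fabp4, Fabp5, Cd36, Angptl4, Plin2, Pdk4 and Cpt1a. They were chosen by symbol, as 10 of the 39179 gene identifiers counted, and by no threshold on measured values. Earlier results of these data were known when they were chosen. All samples were thioglycolate-elicited peritoneal macrophages, cells washed from the peritoneum of C57BL/6 mice aged 8 to 20 weeks 4 days after an injection of thioglycolate medium, with no genetic change in any group. In the polarization experiment, cells from 3 mice were left unstimulated (M0) or kept for 24 h in IL-4 at 10 ng/ml (M2-like) or in LPS at 100 ng/ml combined with IFNγ at 50 ng/ml (M1-like), and each mouse and condition was sequenced as 2 technical replicates. In the reprogramming experiment, 12 conditions were sequenced with 3 replicates each: the 3 states without transfection, the same 3 states given only transfection reagent (mock), and M2-like macrophages transfected with a negative siRNA pool, with siRNA pools against E2f1, Myc, Pparg or Stat6, or with all 4 pools together. These M2-like macrophages had received IL-4 for 24 h, were then transfected and cultured without IL-4, and were harvested 48 h after transfection. The dose of siRNA in each pool, and the harvest time of the untransfected samples of this experiment, were not given in the sources used here. The comparisons asked whether the PPAR genes differ between polarization states and whether lowering Pparg, alone or with E2f1, Myc and Stat6, changes them in M2-like macrophages.

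PPAR receptors bind fatty acids and their derivatives, pair with the retinoid X receptor RXRα encoded by Rxra, and act on DNA elements made of repeated AGGTCA hexamers. In macrophages PPARγ is known for its induction by IL-4 and for genes that take up and store lipid. CD36 is a scavenger receptor for fatty acids and oxidized lipoproteins, FABP4 and FABP5 carry fatty acids in the cytosol, PLIN2 coats lipid droplets, ANGPTL4 is a secreted inhibitor of lipoprotein lipase, CPT1A carries long-chain fatty acids into mitochondria, and PDK4 restrains pyruvate dehydrogenase. On GRCm38, Pparg spans chr6:115360951-115490399 on the plus strand and Rxra chr2:27676440-27762957 on the plus strand. Fabp5 (chr3:10012548-10016607, plus strand) and Fabp4 (chr3:10204088-10208576, minus strand) lie close together, and Ppard (chr17:28232700-28301474, plus strand) shares its chromosome with Angptl4 (chr17:33773750-33781830, minus strand). Cd36 spans chr5:17781690-17888801, Plin2 chr4:86648386-86670060 and Pdk4 chr6:5483351-5496309 on the minus strand, and Cpt1a chr19:3322334-3385733 on the plus strand. No exon of these genes overlapped that of another annotated gene.

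RefSeq promoters on GRCm38.p6 were held for 7 of the 10 genes at 10 start sites, and Fabp4, Fabp5 and Angptl4 had none in the table. The 250 bases before each start were searched on both strands for the hexamer AGGTCA, for a direct repeat of AGGNCA with 1 base between the copies, for the STAT6-type palindrome of TTC and GAA with 4 bases between them, and for the E-box CACGTG bound by MYC family proteins. The hexamer lay in 6 of the 10 stretches, covering 5 genes, against 14.0% of all 32851 promoters of that length. The other motifs were not found in these 10 stretches and lay in 0.338%, 5.85% and 6.02% of all promoters respectively. The direct repeat contains the hexamer where the variable base of either repeat is T. The 3 stretches below belong to lipid genes whose levels are followed through the knockdowns, with the hexamer in capitals as it reads on the strand of the gene, where TGACCT is AGGTCA on the other strand. Plin2 lies on the minus strand, and its 249 bases at chr4:86670061-86670309 lie just before the annotated gene. Those of Cd36, also on the minus strand, are 250 bases at chr5:17835897-17836146 inside an intron of longer Cd36 transcripts. The 234 bases of Cpt1a are on the plus strand at chr19:3323051-3323284, inside an intron of longer transcripts of that gene. A match of letters is a description of the sequence and not a measured binding site.
Plin2: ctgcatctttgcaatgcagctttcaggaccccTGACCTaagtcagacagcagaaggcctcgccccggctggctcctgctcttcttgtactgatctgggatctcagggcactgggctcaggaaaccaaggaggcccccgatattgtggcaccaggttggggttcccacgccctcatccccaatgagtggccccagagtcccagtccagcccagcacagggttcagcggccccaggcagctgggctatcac
Cd36: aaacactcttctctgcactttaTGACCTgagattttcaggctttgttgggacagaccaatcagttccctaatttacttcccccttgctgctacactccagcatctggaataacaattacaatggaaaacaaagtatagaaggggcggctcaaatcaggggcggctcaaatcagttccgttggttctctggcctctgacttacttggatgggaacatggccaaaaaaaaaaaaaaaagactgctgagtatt
Cpt1a: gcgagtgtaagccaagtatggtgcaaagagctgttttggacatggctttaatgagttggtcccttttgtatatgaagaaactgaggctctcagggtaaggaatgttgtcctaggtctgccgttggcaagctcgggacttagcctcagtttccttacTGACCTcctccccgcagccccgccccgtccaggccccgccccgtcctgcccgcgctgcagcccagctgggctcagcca

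Levels are given in CPM, the read count of a gene scaled to a common library total with TMM factors, which remove differences in library composition. Counted reads ranged from 39577911 to 59443987 per mouse and condition in the polarization experiment and from 13421854 to 19704195 per library in the reprogramming experiment. Both experiments were sequenced at different facilities with different read lengths, so levels at 24 h and in the reprogramming experiment are set side by side without a test. The summed level of 6 macrophage markers was between 6162 and 18252 CPM in all samples, while that of 5 adipocyte markers did not exceed 0.741 CPM, with Lep, which encodes leptin, at 0 in every sample. The labelled states had their usual markers at 24 h, with the M1-like marker Nos2 at a mean of 12352 CPM in M1-like against 0.937 CPM in M0 macrophages and the M2-like marker Arg1 at 471 CPM in M2-like against 5.52 CPM in M0. In the reprogramming experiment Nos2 averaged 706 CPM in untransfected M1-like macrophages, but Arg1 was not higher in untransfected M2-like (30.4 CPM) than in M0 macrophages (38.3 CPM). The summed level of 5 M2-like markers, Arg1 among them, was higher there, at 1394 to 1829 CPM in untransfected M2-like and 158 to 247 CPM in untransfected M0 libraries. In mock it was 1108 to 1797 against 161 to 220 CPM. Fibroblast markers reached 289 CPM in the reprogramming experiment against 21.0 CPM at 24 h. In bulk RNA a lower share of one cell type and less RNA per cell cannot be told apart. The labels do not say that replicates of the reprogramming experiment came from separate animals, so p-values there measure only the spread between these samples.

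Compared per kilobase of the longest coding transcript, Fabp5 had the highest level of the group in M0 macrophages at 24 h, at 1050 ± 10.6 CPM per kb (SD, n = 3 mice), followed by Cd36 at 925 ± 42.9 CPM per kb. Plin2 stood at 575 ± 4.97 CPM per kb and Fabp4 at 408 ± 11.2 CPM per kb. The receptors and Cpt1a were more than 10-fold lower on this scale, with 37.1 ± 1.62 CPM per kb for Cpt1a, 31.9 ± 0.300 for Pparg, 30.1 ± 0.678 for Rxra and 9.24 ± 0.180 for Ppard. Angptl4 had 1.44 ± 0.282 CPM per kb. Pdk4 was at the limit of detection, with 13 reads in all over the 9 samples at 24 h and 62 reads over the 36 libraries of the reprogramming experiment. Its highest level was 0.390 CPM, and it passed the filter on low counts in neither experiment, so that tests covered 9 of the 10 genes. Of the sequence of Fabp5, 5.48% of 50-base stretches also occur in the processed pseudogene models Gm6166, Gm13998 and Gm14328, and 2.57% of those of Plin2 occur in Gm12551, so their counts are less certain than the others.

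**Figure D1:**
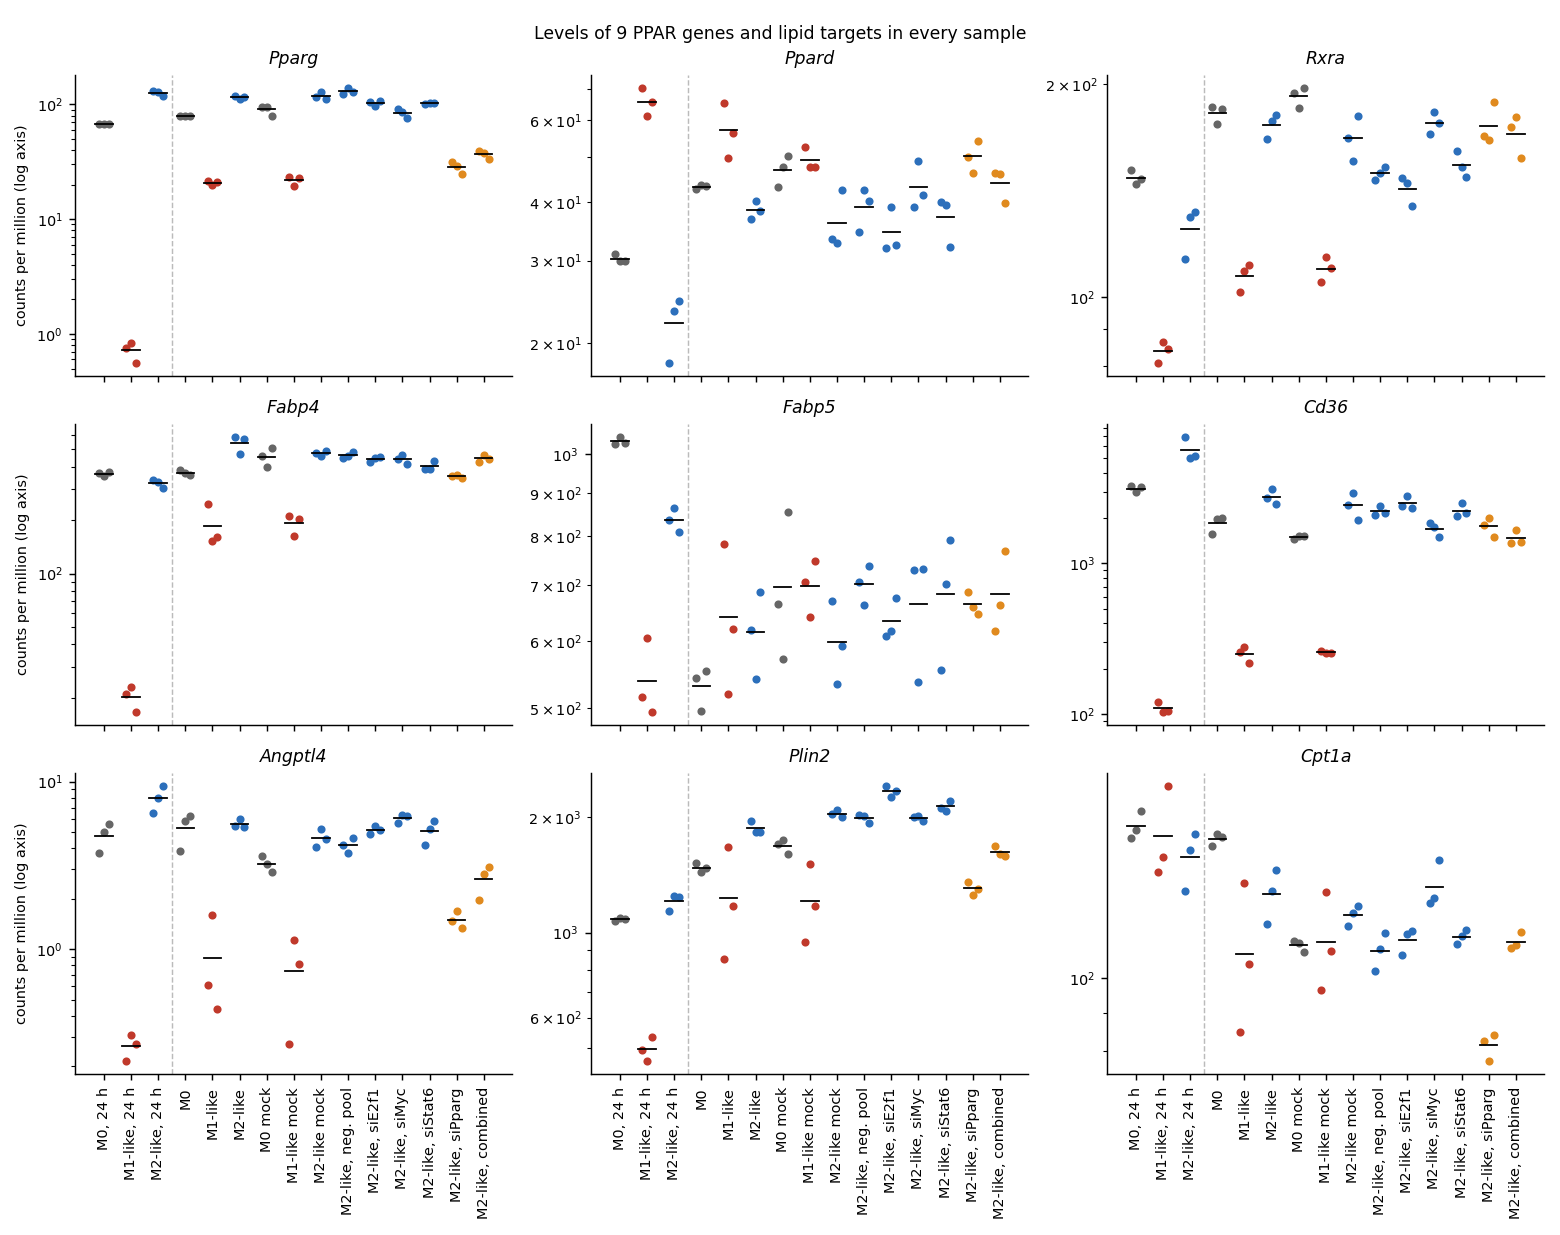
Each panel shows 1 gene in CPM on a log axis, with 1 point per mouse or library and a line at the mean of each of the 15 conditions; the dashed line separates the 24 h experiment from the reprogramming experiment, and orange marks the 2 conditions that received Pparg siRNA. Pparg, Fabp4, Cd36 and Angptl4 had their lowest points in M1-like macrophages in both experiments, and within the reprogramming experiment the Cpt1a points of the Pparg siRNA pool lay below all others.

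IL-4 raised Pparg, Cd36 and Angptl4 within 24 h, by less than 2-fold each, whereas Ppard, Rxra and Fabp5 fell and Fabp4, Plin2 and Cpt1a did not pass the test. Of the 9 genes tested, 3 were higher and 3 lower at an adjusted p under 0.05 (edgeR quasi-likelihood test, Benjamini-Hochberg over 16110 genes), against 13.5% of all genes tested higher and 14.4% lower. The median log2 fold change of the 9 genes was -0.14, against 0.00 for all genes. Pparg was at 67.1, 68.2 and 68.2 CPM in the M0 samples of the 3 mice and at 132, 128 and 120 CPM in the M2-like samples. Every M2-like sample was above every M0 sample, with a log2 fold change of 0.90 (SE 0.07, adjusted p = 2.99e-06, edgeR). The other receptors moved the opposite way: Ppard, a receptor found in most tissues, went from 31.0, 29.99 and 29.9 CPM to 18.1, 23.4 and 24.5 CPM, a log2 fold change of -0.46 (SE 0.10). Rxra went from 151, 145 and 147 CPM to 113, 130 and 132 CPM, a log2 fold change of -0.24 (SE 0.07), and neither gene had overlapping groups. The call of Rxra was lost without M0 replicate 1 or M0 replicate 3 (log2 fold change -0.24 to -0.22, adjusted p 0.0529 to 0.0884, edgeR).

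Among the lipid genes, Cd36 was the one with the largest rise at 24 h, from 3257, 2980 and 3200 CPM in M0 to 6894, 5054 and 5181 CPM in M2-like macrophages (log2 fold change 0.86, SE 0.11). Angptl4 was low throughout and rose from 3.74, 4.98 and 5.57 CPM to 6.51, 7.95 and 9.38 CPM (0.74, SE 0.16). These groups did not overlap for either gene. Fabp5 fell from 1029, 1048 and 1032 CPM to 836, 863 and 809 CPM (-0.31, SE 0.08). For Fabp4 the M2-like samples of 338, 327 and 304 CPM lay below the M0 samples of 369, 354 and 373 CPM, but the difference of -0.18 on the log2 scale did not pass the test (95% interval -0.39 to 0.03, adjusted p = 0.187, edgeR). Plin2 was at 1074, 1093 and 1087 CPM in M0 and at 1137, 1244 and 1242 CPM in M2-like macrophages (log2 fold change 0.16, adjusted p = 0.109, edgeR). It passed without M2 replicate 1, at 0.20 with an adjusted p of 0.0295 (edgeR). Cpt1a had overlapping groups. Summed macrophage markers were also lower in M2-like samples (12675 to 13007 CPM) than in M0 samples (16063 to 17334 CPM), and their part in these differences was not tested.

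Longer lists of related genes were counted beside these 9, to be read against the 13.5% of all genes that were higher and 14.4% that were lower. Of 12 tested nuclear receptor partners and cofactors, 1 was higher and 5 were lower in M2-like macrophages at 24 h, the higher one being Ppargc1b, a coactivator of mitochondrial genes, at 7.19 ± 0.419 against 3.44 ± 0.174 CPM (SD, n = 3). Of 18 tested genes of fatty acid uptake, binding and storage, 1 was higher and 5 were lower. The higher one was Olr1, a receptor for oxidized lipoprotein (log2 fold change 1.79), and the lower ones included Fabp3, another fatty acid carrier (-0.99), and Mgll, the monoacylglycerol lipase (-0.69). Of 24 tested genes of fatty acid oxidation, 7 were higher and 3 lower. Etfa, which passes on electrons from fatty acid oxidation, was higher by 0.51 on the log2 scale, while Pdk2 (-0.62), a kinase of the PDK4 family, and Ucp2 (-0.31) were lower.

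LPS with IFNγ gave the lowest Pparg level of the series. The M1-like samples of the 3 mice had 0.757, 0.843 and 0.562 CPM, 27 to 33 reads each, against at least 67.1 CPM in M0, a log2 fold change of -6.57 (SE 0.10, adjusted p = 2.18e-13, edgeR). Cd36 fell to 119, 103 and 104 CPM (log2 fold change -4.85, SE 0.13), Fabp4 to 21.1, 23.1 and 16.7 CPM (-4.17, SE 0.11), and Angptl4 to 0.216, 0.307 and 0.270 CPM (-4.15, SE 0.25). Thus 4 genes fell by more than 16-fold. Plin2 (494, 463 and 533 CPM), Fabp5 (514, 605 and 495 CPM) and Rxra (80.7, 86.5 and 84.4 CPM) fell by 1.13, 0.95 and 0.81 on the log2 scale. Ppard was the only one of the group to rise, to 70.1, 61.2 and 65.5 CPM (1.11, SE 0.10). Cpt1a was at 139, 145 and 181 CPM and had a difference of -0.04 (95% interval -0.26 to 0.17) from M0.

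In this comparison 1 of the 9 genes was higher and 7 were lower, against 35.4% and 37.5% of all genes tested, so that a call by itself said little, while the median log2 fold change was -1.13 for the 9 genes and -0.04 for all genes. The related lists did not move as one. Of the 18 genes of uptake, binding and storage, 9 rose and 8 fell: Acsl1, which activates fatty acids with coenzyme A, rose by 5.16 on the log2 scale to 1844 ± 291 CPM, and Hilpda, an inhibitor of droplet lipolysis, by 3.78, while the lipoprotein lipase gene Lpl fell to 576 ± 114 from 4724 ± 388 CPM (-3.04). Of the 24 oxidation genes, 4 rose and 15 fell, with Pdk1 (2.73) and Pdk3 (1.68), relatives of Pdk4, among those that rose and Ucp2 (-2.34) and Acot2 (-2.10) among those that fell. Summed macrophage markers were lower in M1-like samples at 24 h (10129 to 11072 CPM) than in M0 samples (16063 to 17334 CPM). Summed levels of 4 eosinophil markers, of which 1 reached 1 CPM, were also lower in M1-like samples at 24 h (0.208 to 0.792 CPM) than in M0 samples (15.5 to 16.8 CPM), and those of 4 endothelial markers were higher (27.3 to 45.8 against 10.5 to 13.8 CPM). Their part in these results was not tested.

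In the reprogramming experiment Pparg and Cd36 were again higher in M2-like than in M0 macrophages, with and without transfection reagent. Untransfected M0 libraries had 80.1, 79.8 and 79.1 CPM of Pparg and untransfected M2-like libraries 120, 111 and 115 CPM, a log2 fold change of 0.53 (SE 0.08, adjusted p = 1.35e-05, edgeR). Mock M0 libraries had 96.0, 95.6 and 79.8 CPM and mock M2-like libraries 116, 128 and 112 CPM (0.39, SE 0.08, adjusted p = 0.00335, edgeR). Cd36 was higher in M2-like macrophages in both settings, at 2700, 3104 and 2472 against 1565, 1967 and 2004 CPM when untransfected (0.58, SE 0.13), and at 2440, 2938 and 1955 against 1444, 1509 and 1524 CPM in mock (0.71, SE 0.13). Fabp4 was higher only in the untransfected pair at this threshold, at 585, 472 and 570 against 383, 366 and 358 CPM (0.55, SE 0.11), and differed by 0.06 in mock (95% interval -0.17 to 0.29). The difference between the 2 settings was -0.49 for Fabp4 (SE 0.16, adjusted p = 0.067, edgeR), and none of the 9 genes passed this test of the difference, which called 2.41% of all genes higher and 3.25% lower. At an unadjusted p under 0.05 edgeR gave 3 of the 9, and DESeq2 called 1, Fabp4, at an adjusted p of 0.0383.

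Of the 9 genes, 3 were thus higher and 0 lower in untransfected M2-like against M0 macrophages (10.7% and 9.19% of all genes), and 2 were higher and 1 lower in mock (2.19% and 1.64% of all genes). The lower one was Ppard, at 33.4, 32.7 and 42.4 CPM against 43.2, 47.5 and 50.2 CPM (log2 fold change -0.38, adjusted p = 0.0474, edgeR). The call of Cd36 in mock held without any single library. That of Ppard was lost with RLE normalization (adjusted p = 0.0522, edgeR) and without M0 mock replicate 2 or 3 or M2-like mock replicate 1 or 2 (-0.37 to -0.31, adjusted p 0.135 to 0.229, edgeR). Those of Ppard and Pparg were lost in a fit of these 2 groups alone (adjusted p 0.215 and 0.122, edgeR). Plin2 had higher values in M2-like macrophages in both settings, by 0.34 and 0.28 on the log2 scale, and did not pass (adjusted p 0.0641 and 0.258, edgeR). Untransfected, it passed with DESeq2 (adjusted p = 0.0403), without the filter (0.00255) and in a fit of the 2 groups alone (0.00379). In both settings the oxidation list held genes that were higher in M2-like macrophages and none that were lower, 7 of 24 untransfected and 4 of 24 in mock, led by Hadhb (0.59 and 0.60) and Hadha (0.49 and 0.43), the subunits of the mitochondrial trifunctional protein.

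M1-like macrophages of the reprogramming experiment again had low Pparg, but not as low as at 24 h: 21.5, 19.9 and 21.1 CPM untransfected and 23.1, 19.5 and 22.9 CPM in mock. The log2 fold changes against the matching M0 were -1.93 (SE 0.09) and -2.05 (SE 0.09). On the log2 scale the differences were -2.88 and -2.54 for Cd36, -2.60 and -2.10 for Angptl4, and -0.99 and -1.25 for Fabp4, all past the test. Angptl4 had only 7 to 24 reads in untransfected and 5 to 23 reads in mock M1-like libraries, so its size of change is less certain. Leaving out 1 library gave -3.32 to -2.28 untransfected and -2.57 to -1.71 in mock. Rxra differed by almost the same amount in every setting, -0.76 and -0.81 here and -0.81 at 24 h. Fabp5, which fell at 24 h, had differences of 0.27 (95% interval -0.01 to 0.56) and 0.00 (-0.28 to 0.29) that did not pass, and untransfected it passed as higher without the filter (adjusted p = 0.0115, edgeR). Untransfected, Ppard was higher by 0.40 and Cpt1a lower by -0.51, and in mock Plin2 was lower by -0.48. Untransfected, 1 gene was higher and 6 lower (29.0% and 28.7% of all genes), and in mock 0 were higher and 6 lower (30.3% and 30.0%).

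Plin2 and Cpt1a varied widely among M1-like libraries, with Plin2 at 851, 1673 and 1175 CPM and Cpt1a at 84.8, 134 and 105 CPM in untransfected replicates 1, 2 and 3. Without M1 replicate 2, Plin2 passed at a log2 fold change of -0.55 against M0 (adjusted p = 0.000156, edgeR) in place of -0.26 (adjusted p = 0.0894, edgeR), and Fabp5 passed at 0.40 (adjusted p = 0.0207, edgeR). Macrophage markers summed to 6600 to 7738 CPM in untransfected M1-like and 16398 to 16745 CPM in untransfected M0 libraries, and in mock to 6162 to 7160 against 12624 to 15291 CPM. Fibroblast markers summed to 23.4 to 70.5 CPM in untransfected M1-like libraries and 83.6 to 173 CPM in untransfected M0 libraries, and in mock to 13.3 to 29.1 against 122 to 194 CPM. Their part in these differences was not tested.

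**Figure D2:**
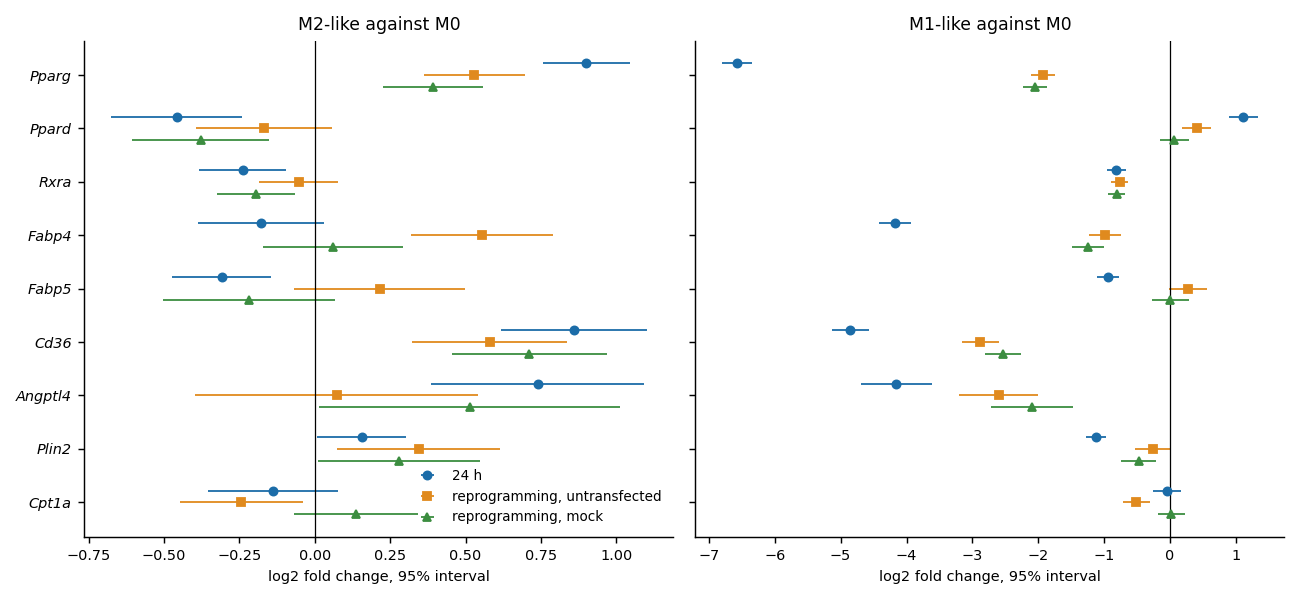
Points are log2 fold changes of 9 genes against M0, with 95% intervals from the edgeR fit, for M2-like (left) and M1-like (right) macrophages at 24 h (circles), untransfected (squares) and mock (triangles) in the reprogramming experiment; the 2 panels have different scales. Pparg and Cd36 lay above 0 in all 3 settings for M2-like and below 0 in all 3 for M1-like macrophages. The Pparg difference for M1-like macrophages was -6.57 at 24 h, and in the reprogramming experiment -1.93 untransfected and -2.05 in mock.

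In M2-like macrophages no change of these genes passed the test for transfection reagent or for control siRNA. Between mock and untransfected M2-like macrophages 0 of the 9 genes passed (1.67% of all genes higher, 0.0988% lower), and between the negative siRNA pool and mock again 0 passed (6.67% and 5.03%). DESeq2 called 0 in the first comparison and 1, Rxra, in the second (-0.18, adjusted p = 0.0376), as did edgeR without M2-like mock replicate 2 (-0.22, adjusted p = 0.0385). At an unadjusted p under 0.05 the counts by edgeR were 0 and 1. Genes of the longer lists did change with the negative pool against mock. Of 24 oxidation genes 0 were higher and 5 lower, among them Pdk1 (log2 fold change -0.35). Of 17 uptake, binding and storage genes 1 was higher and 3 were lower, among them Acsl3 (-0.98) and Lpl, at 1923 ± 241 against 3773 ± 532 CPM (-0.97). Of 12 receptor partners and cofactors 0 were higher and 2 lower. Summed macrophage markers were lower with the negative pool (12202.5 to 13189 CPM) than in M2-like mock (14555 to 15901 CPM). Those of 4 endothelial markers (72.3 to 77.1 against 29.1 to 31.6 CPM) and 4 eosinophil markers (33.4 to 38.7 against 18.7 to 19.8 CPM) were higher. Of the endothelial markers, 2 reached 1 CPM with the negative pool and 1 in mock. Of the eosinophil markers, 1 reached it in each, so these sums rest on few genes. The part of these shifts in the knockdown comparisons was not tested. In M0 macrophages the reagent alone went with higher Fabp5 (0.39, adjusted p = 0.0441, edgeR) and lower Angptl4 (-0.72, adjusted p = 0.0306, edgeR) and Cpt1a. Cpt1a had 151, 156 and 155 CPM untransfected and 112, 112 and 109 CPM in mock (-0.47, SE 0.10), and was the one of the 3 calls that held without any single library. In that comparison 1 of the 9 genes was higher and 2 were lower, against 11.7% and 8.66% of all genes. Leaving out 1 library ended the call of Fabp5 for 5 of 6 libraries, all but M0 mock replicate 2 (0.22 to 0.43, adjusted p 0.0583 to 0.315, edgeR), and that of Angptl4 for M0 replicates 2 and 3 and M0 mock replicates 2 and 3 (-0.73 to -0.60, adjusted p 0.0794 to 0.14, edgeR).

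Each siRNA pool lowered the RNA of its own target. Relative to the mean of the negative siRNA pool, Pparg was at 21.9% ± 2.57 (SD, n = 3) with the Pparg pool and at 28.3% ± 2.25 with the combined pools. Stat6 was at 27.3% ± 5.79 with its own pool and 53.9% ± 4.82 with the combined pools, E2f1 at 25.2% ± 4.05 and 60.4% ± 2.01, and Myc at 38.0% ± 8.01 and 39.6% ± 3.20. Stat6 and E2f1 were therefore lowered less by the combined pools than by their single pools, with no overlap of replicates, whereas Myc replicates overlapped.

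With the Pparg siRNA pool, Angptl4, Plin2, Cpt1a and Fabp4 fell in M2-like macrophages and Ppard and Rxra rose, while Cd36 and Fabp5 did not pass the test. Counting Pparg, the target itself, 5 of the 9 genes were thus lower and 2 higher than with the negative siRNA pool, against 3.03% of all 14172 genes lower and 2.71% higher. The median log2 fold change of the 9 genes, with the target Pparg included, was -0.39, against 0.01 for all genes. Pparg was at 31.6, 29.1 and 25.0 CPM, against 123, 138 and 130 CPM with the negative pool (log2 fold change -2.19, SE 0.09, adjusted p = 2.12e-18, edgeR). All libraries of the Pparg pool had more Pparg than any M1-like library of the experiment, whose highest value was 23.1 CPM.

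Angptl4 had the largest change after Pparg, with 1.47, 1.68 and 1.34 CPM against 4.21, 3.74 and 4.63 CPM, a 2.77-fold lower level (log2 fold change -1.47, SE 0.27, adjusted p = 0.0007, edgeR). Plin2, the droplet coat gene, was 1.53-fold lower at 1358, 1257 and 1299 against 2025, 2020 and 1934 CPM (-0.61, SE 0.13, adjusted p = 0.00381, edgeR). Cpt1a was at 82.5, 77.5 and 83.9 against 102, 110 and 115 CPM (-0.42, SE 0.10, adjusted p = 0.00951, edgeR). Fabp4 was at 353, 359 and 346 against 448, 456 and 486 CPM (-0.39, SE 0.11, adjusted p = 0.0358, edgeR). For these 4 genes every library of the Pparg pool lay below every library of the negative pool.

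Cd36 values were 1797, 2000 and 1492 CPM against 2103, 2411 and 2166 CPM, also without overlap, and its log2 difference of -0.34 did not pass (95% interval -0.59 to -0.08, adjusted p = 0.116, edgeR). It passed in a fit of these 2 groups alone (adjusted p = 0.0445, edgeR), without the filter (0.00982) and against M2-like mock (-0.47, adjusted p = 0.00741, edgeR). Fabp5 groups overlapped. Ppard was at 50.1, 46.2 and 54.0 against 34.6, 42.4 and 40.3 CPM (0.36, SE 0.11, adjusted p = 0.0484, edgeR) and Rxra at 169, 167 and 189 against 147, 150 and 153 CPM (0.22, SE 0.06, adjusted p = 0.034, edgeR).

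The calls of Pparg, Angptl4 and Plin2 held in all 6 fits that left out 1 library of the Pparg or negative pool. That of Cpt1a was lost without Pparg pool replicate 2 or negative pool replicate 3 (log2 fold change -0.39 to -0.38, adjusted p 0.0526 to 0.063, edgeR), and that of Fabp4 in all 6 (-0.42 to -0.36, adjusted p 0.0713 to 0.141, edgeR). Ppard lost its call without Pparg pool replicate 1 or 3 or negative pool replicate 1 or 3 (0.28 to 0.38, adjusted p 0.0921 to 0.241, edgeR) and with RLE normalization (adjusted p = 0.0502, edgeR). Rxra lost it without Pparg pool replicate 3 or any negative pool replicate (0.16 to 0.24, adjusted p 0.0774 to 0.259, edgeR), without the filter (0.138), in a fit of the 2 groups alone (0.0583) and against M2-like mock, where it differed by 0.06 (adjusted p = 0.617, edgeR).

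Counts of the longer lists with the Pparg pool are to be read against 2.71% of all genes higher and 3.03% lower. None of the 24 oxidation genes rose and 6 fell, with Hadhb at 5.15 ± 1.23 against 9.36 ± 1.43 CPM (log2 fold change -0.86) and Hadha at 153 ± 1.60 against 218 ± 9.43 CPM (-0.51, adjusted p = 1.87e-07, edgeR). Both had been among the genes that were higher in M2-like than in M0 macrophages. Of 17 tested genes of uptake, binding and storage, 4 fell, among them the lipase genes Mgll (-0.46) and Pnpla2 (-0.40), the latter being the first lipase to act on droplet triglyceride. Of 12 receptor partners and cofactors 1 rose, Ppargc1b, at 11.0 ± 1.34 against 6.57 ± 0.773 CPM. With the Myc pool Ppargc1b also rose and Hadhb also fell (0.79 and -0.72 on the log2 scale). Summed fibroblast markers were 158 to 289 CPM with the Pparg pool and 179 to 262 CPM with the negative pool, and 4 endothelial markers, of which 2 reached 1 CPM, 51.3 to 61.0 against 72.3 to 77.1 CPM, and the part of the latter in these results was not tested.

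With the combined pools Cd36 and Angptl4 fell and Rxra rose, while the other genes besides Pparg did not pass. Pparg was at 39.0, 38.1 and 33.5 CPM (log2 fold change -1.82 against the negative pool, SE 0.08). Cd36 fell to 1364, 1670 and 1379 CPM (-0.60, SE 0.13, adjusted p = 0.000588, edgeR) and Angptl4 to 1.97, 2.82 and 3.10 CPM (-0.67, SE 0.25, adjusted p = 0.0448, edgeR), while Rxra rose to 174, 180 and 157 CPM (0.18, SE 0.06, adjusted p = 0.0306, edgeR). Including Pparg, 1 gene was higher and 3 were lower, against 12.5% and 13.9% of all genes, and the median log2 fold change was -0.06 for the 9 genes and 0.01 for all. Plin2, at 1689, 1601 and 1583 CPM, lay below the negative pool in every library and did not pass (-0.29, 95% interval -0.56 to -0.03, adjusted p = 0.0998, edgeR). It passed in a fit of the 2 groups alone (adjusted p = 0.00261, edgeR), without the filter (0.00995) and against M2-like mock (0.0474). Fabp4 (-0.06), Fabp5 (-0.04) and Cpt1a (0.04) had differences near 0, with 95% intervals of -0.29 to 0.17, -0.32 to 0.24 and -0.17 to 0.25.

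Leaving out 1 library ended the call of Rxra for all but combined pool replicate 3 (0.14 to 0.20, adjusted p 0.0526 to 0.152, edgeR) and that of Angptl4 for the same 5 libraries (-0.74 to -0.50, adjusted p 0.0517 to 0.2, edgeR). Rxra also lost its call without the filter (adjusted p = 0.164, edgeR) and against M2-like mock (0.02, adjusted p = 0.839, edgeR). Counts of the longer lists with the combined pools are to be read against 12.5% of all genes higher and 13.9% lower. Of the 24 oxidation genes 10 fell and 0 rose, with Hadhb at -0.89 and Pdk1 at -0.72. Of the 17 uptake, binding and storage genes 1 rose and 7 fell, among them Acsl3 (-1.26), which activates fatty acids for droplet growth, and Lpl, at 1041 ± 158 against 1923 ± 241 CPM (-0.89). Of the receptor partners and cofactors 3 rose, with Ppargc1b (0.81) and Crebbp (0.37), an acetyltransferase coactivator, the highest.

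**Figure D3:**
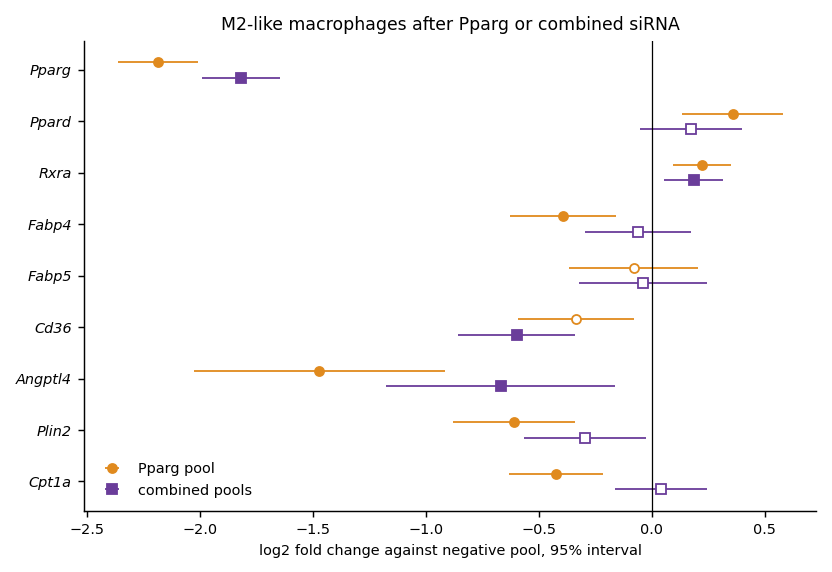
Points are log2 fold changes against the negative siRNA pool with 95% intervals from the edgeR fit, for the Pparg pool (circles) and the combined pools (squares); filled points passed at an adjusted p under 0.05. Angptl4 was at -1.47 with the Pparg pool and -0.67 with the combined pools, and Cpt1a at -0.42 and 0.04. Both sets of values share the 3 negative pool libraries.

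A direct comparison of the combined pools with the Pparg pool gave higher levels with the combined pools for Pparg (log2 difference 0.37, SE 0.09), Cpt1a (0.46, SE 0.10), Angptl4 (0.80, SE 0.29) and Fabp4 (0.33, SE 0.11). Thus 4 of 9 genes were higher and 0 lower, against 7.68% and 10.3% of all genes. The calls of Pparg and Cpt1a held in all 6 fits that left out 1 of these libraries. That of Fabp4 was lost in all 6 (0.30 to 0.36, adjusted p 0.0581 to 0.126, edgeR) and that of Angptl4 in 5, the exception being combined pool replicate 1 (0.67 to 0.91, adjusted p 0.0779 to 0.176, edgeR), and in a fit of the 2 groups alone (adjusted p = 0.0507, edgeR). Plin2 had a difference of 0.32 that did not pass (adjusted p = 0.0958, edgeR). Cd36 went the other way, lower by -0.26 with the combined pools (95% interval -0.52 to -0.0044), and did not pass (adjusted p = 0.155, edgeR), but did without the filter (0.0323). Pparg was the one gene of the 9 that passed the test of the combined change against the sum of the 4 single changes, with a difference of 1.66 on the log2 scale (SE 0.21, adjusted p = 2.82e-05, edgeR), against 1.09% of all genes higher and 0.593% lower. Pparg was itself an siRNA target in both the Pparg and the combined pools. Stat6 and E2f1 were lowered less by the combined pools, to 53.9% and 60.4%, than by their single pools, to 27.3% and 25.2%. The test therefore did not compare equal knockdowns, and no conclusion on how the factors combine is drawn from it. Fabp4 differed by 0.68 (95% interval 0.07 to 1.29, adjusted p = 0.302, edgeR) and passed in a fit of the compared groups alone (0.0199). Intervals for the other 7 genes included 0 and were wide, for example -0.73 to 0.70 for Plin2 and -1.61 to 1.03 for Angptl4.

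The single pools against the other 3 factors also lowered Pparg RNA. Pparg was at 91.6, 86.1 and 76.9 CPM with the Myc pool (log2 fold change -0.62, SE 0.08, adjusted p = 6.82e-07, edgeR). It was at 100, 104 and 102 CPM with the Stat6 pool (-0.35, SE 0.08, adjusted p = 0.016, edgeR) and at 106, 97.8 and 107 CPM with the E2f1 pool (-0.33, SE 0.08, adjusted p = 0.0366, edgeR). All 9 of these libraries were below all 3 libraries of the negative pool, with which all 3 comparisons were made. Against M2-like mock, the Stat6 and E2f1 calls were lost (-0.22 and -0.20, adjusted p 0.0785 and 0.119, edgeR). They were also lost when 1 library was left out, for Stat6 with any but negative pool replicate 1 (-0.36 to -0.30, adjusted p 0.0625 to 0.101, edgeR) and for E2f1 with each of the 6 (-0.37 to -0.28, adjusted p 0.0515 to 0.204, edgeR).

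Beyond Pparg, 0 of the other 8 genes passed with the Stat6 pool (of all genes, 0.466% were higher and 1.04% lower) or with the E2f1 pool (0.261% and 0.649%), by edgeR or DESeq2, and 0 had an unadjusted p under 0.05 by edgeR. Against M2-like mock, Rxra passed as lower with the E2f1 pool (-0.24, adjusted p = 0.0108, edgeR). In a fit of only the E2f1 and negative pools Plin2 passed as higher (0.24, adjusted p = 0.0238, edgeR), with 2413, 2260 and 2346 CPM. With the Myc pool Pparg and Cd36 were lower and Rxra and Cpt1a higher, 2 genes each way, against 15.6% of all genes lower and 13.9% higher. Cd36 was at 1845, 1751 and 1495 CPM (-0.39, adjusted p = 0.0181, edgeR), Rxra at 170, 182 and 176 CPM (0.23, adjusted p = 0.00551, edgeR) and Cpt1a at 126, 128 and 144 CPM (0.28, adjusted p = 0.0306, edgeR). Angptl4, which fell with the Pparg pool, was at 5.67, 6.36 and 6.21 CPM, above every negative pool library, with a log2 difference of 0.53 that did not pass (adjusted p = 0.0771, edgeR) and did with DESeq2 (adjusted p = 0.0441).

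Cd36 lost its call in the Myc comparison without Myc pool replicate 3 or negative pool replicate 2 (-0.33 to -0.31, adjusted p 0.0842 to 0.113, edgeR), and Cpt1a without these or negative pool replicate 1 (0.22 to 0.29, adjusted p 0.066 to 0.153, edgeR). Against M2-like mock, Rxra and Cpt1a lost theirs (0.07 and 0.12, adjusted p 0.417 and 0.346, edgeR). None of the 24 oxidation genes rose with the Myc pool and 8 fell, where 13.9% of all genes were higher and 15.6% lower. Hadhb (log2 fold change -0.72) and Pdk1 (-0.68) were among those that fell. Of the 17 uptake, binding and storage genes 1 rose and 6 fell, among them Acsl3 (-1.34) and Lpl (-0.84). Of the 12 receptor partners and cofactors 4 rose, among them Ppargc1b (0.79) and Crebbp (0.42), and 1 fell. The Myc pool came from another supplier than the pools against E2f1, Pparg and Stat6. The supplier of the negative pool was not given in the sources used here. Summed macrophage markers were 11456 to 11681 CPM with the Myc pool and 11478 to 11740 CPM with the E2f1 pool. With the negative pool they were 12202.5 to 13189 CPM, and their part in these differences was not tested.

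**Figure D4:**
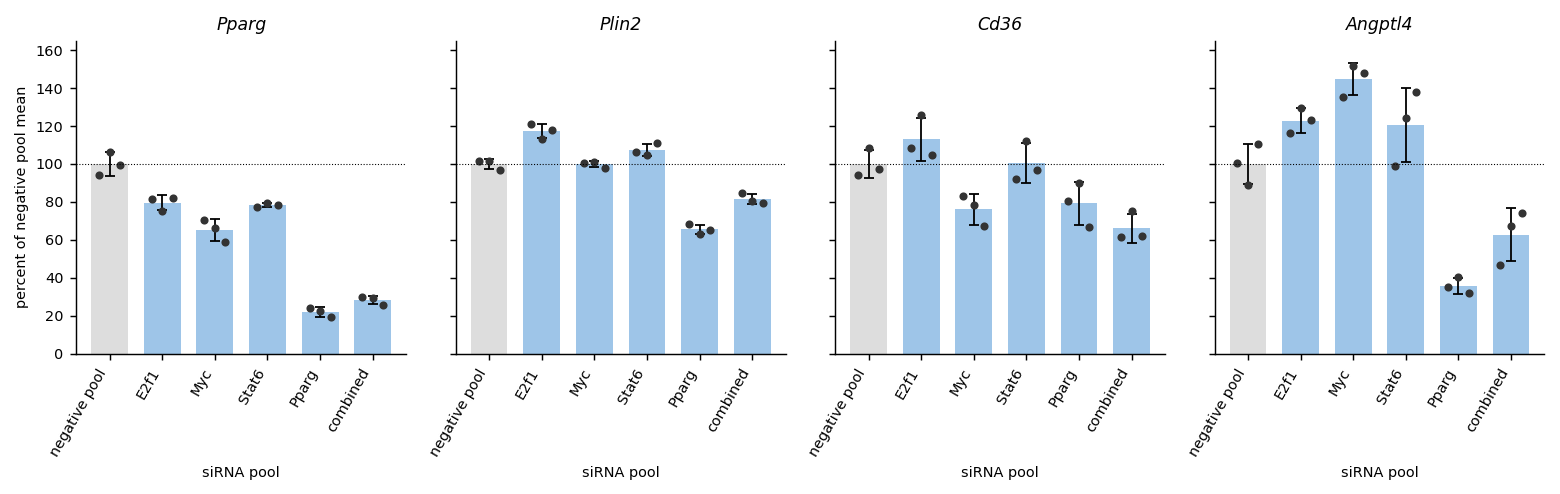
Bars are means of 3 libraries as a percent of the negative siRNA pool mean, with SD and single libraries, for Pparg, Plin2, Cd36 and Angptl4 in M2-like macrophages given each siRNA pool; the dotted line marks the negative pool mean. Pparg bars of all 5 pools lie below that line. Plin2 and Angptl4 bars lie below it for the Pparg and combined pools and near or above it for the others. The change of Plin2 with the combined pools did not pass the test. Cd36 bars lie below the line for the Myc, Pparg and combined pools, and the change with the Pparg pool did not pass.

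Across the 12 conditions of the reprogramming experiment, mean Pparg levels ran from 130 ± 7.96 CPM with the negative siRNA pool to 20.9 ± 0.809 CPM in untransfected M1-like macrophages. Of the 11 neighbouring pairs of conditions in this order, 5 had replicates that did not overlap: M2-like above the E2f1 pool, the Stat6 pool above M0 mock, M0 above the combined pools, the combined pools above the Pparg pool, and the Pparg pool above M1-like mock. For Plin2 4 of 11 neighbouring pairs were separate, for Cpt1a 3, for Fabp4, Cd36 and Angptl4 2 each, for Rxra 1, and for Ppard and Fabp5 0. Fabp4 was highest in untransfected M2-like macrophages at 542 ± 61.5 CPM, as was Cd36 at 2759 ± 320 CPM, whereas Plin2 was highest with the E2f1 pool at 2340 ± 76.8 CPM and Cpt1a in untransfected M0 at 154 ± 2.79 CPM.

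As a description, Pearson's r with Pparg was taken over the 12 condition means of log2 CPM, each from its own 3 libraries. The labels do not say whether conditions shared animals. It was 0.89 for Plin2, 0.83 for Fabp4, 0.83 for Cd36, 0.58 for Rxra, 0.49 for Cpt1a, -0.22 for Fabp5 and -0.85 for Ppard. Without the 2 conditions that received Pparg siRNA, it was 0.99 for Cd36, 0.98 for Fabp4, 0.89 for Plin2, 0.81 for Rxra, 0.30 for Cpt1a, -0.14 for Fabp5 and -0.85 for Ppard over the remaining 10. Both sets of conditions include untransfected and mock M1-like macrophages, where Pparg, Cd36, Fabp4 and Plin2 all had their lowest means. The part of the M1-like conditions in r was not tested. Of 10133 other genes compared, those most like Pparg were Snx27 (0.97), Unc119 (0.96), Dop1b (0.96), Tpra1 (0.94) and Raly (0.94). Without the 2 Pparg siRNA conditions these ranked 142, 278, 250, 493 and 475, so that none of the 5 stayed among the first 5. Their r was then still 0.97, 0.96, 0.96, 0.94 and 0.95, so that values of this size were common among all genes. Those most like Fabp4 were Txn1, the thioredoxin gene, Gas2l3 and Ncoa4, a ferritin receptor gene (all 0.98), and they ranked 1, 6 and 2 without those conditions.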

How the data were processed

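Per the labels and the study's methods, the authors trimmed reads with Trimmomatic, aligned them to GRCm38 (mm10) with TopHat and deposited raw counts per gene from featureCounts. Strand and multi-mapping settings were not given in the sources used here. Technical replicates were summed for each mouse and condition. Counts of each experiment were fitted in 1 model with edgeR 4.0.16 in R 4.3.3 (TMM normalization, filterByExpr with a minimum count of 10 and a minimum total of 15, quasi-likelihood test, Benjamini-Hochberg over all genes tested, threshold 0.05), and the fit was tested on simulated data. DESeq2 1.42.0 and other settings served as alternatives. Genes, lists and the rule for named genes (members, and for each list up to 2 genes each way with the largest changes past the threshold, an average log2 CPM of at least 2 and groups that did not overlap) were chosen with earlier results of these data known. Positions and promoters came from GRCm38. In the polarization experiment replicate numbers name the same mouse; deviations of same-numbered samples correlated at a median of 0.25 (lowest -0.056, 6 of 9 pairs above 0.1). Intervals cover the spread between samples. Columns other than counts were not used.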

Additional observations from a re-analysis of the deposited data

Results flagged for a closer look

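Fabp4 had opposite directions in M2-like against M0 macrophages in the 2 experiments, with no overlap of replicates in either. Its log2 fold change was -0.18 at 24 h, where it did not pass the test, and 0.55 in the untransfected samples of the reprogramming experiment, where it did. The difference between the experiments was not tested, since they were sequenced separately.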

How the results depend on the processing

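No called value of the 9 genes changed sign under any alternative run (DESeq2, RLE normalization, no filter, a minimum of 10 counts in each sample, replicate block, only the groups compared, technical replicates apart, M2-like mock as the reference, and leaving out 1 sample). The number of the 9 genes called moved by more than 1.5 times in these cases. For untransfected M2-like against M0 it went from 3 to 5 with no filter, with the replicate block and with only the groups compared, and for the mock pair from 3 to 1 with only the groups compared. For M0 mock against M0 it went from 3 to 5 with no filter and with the replicate block. For the negative pool against mock it went from 0 to 1 with DESeq2, and for mock minus untransfected from 0 to 1 with DESeq2, the replicate block or only the groups compared, and to 3 with no filter. With M2-like mock as the reference it went from 1 to 0 for the Stat6 pool and from 4 to 2 for the Myc pool. With only the groups compared it went from 1 to 2 for the E2f1 pool and for the combined pools against the sum of single changes. Leaving out 1 library gave 3 to 5 in place of 7 for the Pparg pool, 2 to 4 for the combined pools, 2 to 4 for the Myc pool, 0 to 1 for the Stat6 pool, 0 for the E2f1 pool, 2 to 3 for the combined against the Pparg pool, 1 for the sum, 0 to 1 for the negative pool against mock and for mock minus untransfected, and 1 to 3 for M0 mock against M0. It gave 5 to 7 for M2-like at 24 h, 8 for M1-like at 24 h, 3 for untransfected and 2 to 4 for mock M2-like, 7 to 9 for untransfected and 6 for mock M1-like against M0.

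In the reprogramming experiment replicates share only a number: same-numbered samples of different conditions correlated above 0.1 in 131 of 198 pairs (median 0.183, lowest -0.249), and 34 of 36 samples correlated best with their own number. The median for different numbers was -0.083. Deviations were taken from the mean of each condition, which ties this value to the first and makes it no separate baseline. With the replicate block 9 further calls passed and 0 were lost (adjusted p from edgeR): Cd36 for the Pparg pool (log2 fold change -0.34, 0.0175), for the combined against the Pparg pool (-0.26, 0.0425) and for M0 mock against M0 (-0.30, 0.0153), Fabp4 for M0 mock against M0 (0.30, 0.0392) and for mock minus untransfected (-0.49, 0.04), Plin2 (0.34, 0.0456) and Cpt1a (-0.25, 0.038) for untransfected M2-like against M0, Fabp5 for untransfected M1-like against M0 (0.27, 0.0392), and Angptl4 for the Myc pool (0.53, 0.0402). At 24 h the block by mouse changed no call of the 9 genes. Angptl4 and Pdk4 were limited by depth. Angptl4 had 8 to 13 reads in M1-like samples at 24 h, and 7 to 24 untransfected and 5 to 23 in mock M1-like libraries of the reprogramming experiment.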
